A study of Mus musculus with 12 samples.

Results

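The 7 genes described here belong to steroid hormone signalling and were measured in RNA pulled down from the basolateral amygdala: the glucocorticoid receptor gene Nr3c1, the mineralocorticoid receptor gene Nr3c2, the progesterone receptor gene Pgr, the oestrogen receptor genes Esr1 and Esr2, and the coactivator genes Ncoa1 and Ncoa2. They were chosen by name, as every probe set whose gene symbol in the deposited annotation equals one of these 7, which gave 21 of 45037 probe sets and 7 of 20752 genes with a symbol of their own. A probe set is a group of short probes that together measure one transcript. Mice were given footshocks (shock) or were exposed to a female mouse (female). In both groups a FLAG-tagged form of the poly(A)-binding protein PABPC1 was expressed in the basolateral amygdala from the promoter of fos, a gene switched on by neuronal activity, and RNA was pulled down through the tag, so the groups share the transgene and differ in exposure. Each group had 3 Affymetrix mouse arrays, and every array was deposited both as RMA values (log2) and as MAS5 intensities (linear), so the 12 deposited samples are 6 arrays. The labels give pools of 2 mice per sample but 3 mice per group, so arrays of a group may share mice and p-values measure only the spread between arrays. The strain, sex and age of the mice, and the time from exposure to collection, are stated in none of the sources used here.

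Steroid receptors are transcription factors that lie with heat shock proteins and other chaperones until a hormone binds, and then regulate genes from DNA elements of their own. The glucocorticoid and mineralocorticoid receptors bind corticosterone, the stress hormone of mice, and Esr1, Esr2 and Pgr encode the receptors of oestrogens and progesterone. Ncoa1 and Ncoa2, known also as SRC-1 and GRIP1, encode p160 coactivators that join the bound receptor and bring in histone acetyltransferases. In the amygdala, corticosteroid receptors are known for their part in fear memory, while oestrogen and progesterone receptors are best known from the neighbouring medial nucleus and the hypothalamus.

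Of the 21 probe sets, 16 had a mean RMA value above 6.31, the 40th percentile of all probe sets, and entered one limma fit of shock minus female over all such probe sets. A probe set is called when its Benjamini-Hochberg adjusted p over all 27022 is under 0.05. The 5 below that filter were 1431378_at of Nr3c1, 1421244_at and 1435663_at of Esr1, 1443397_at of Ncoa1 and 1426103_a_at, the probe set of Esr2. Their values come from the fit without a filter. Each gene is represented by its brightest probe set. The positions in the deposited annotation lay within the mouse GRCm38.p6 span of the named gene for 96.2% of positioned probe sets, and for 21 of 21 of the probe sets described here, with a tolerance of 1000 bases. For all 7 genes the representative was also the probe set nearest the 3' end of the gene. The levels of different probe sets are not comparable, since probes differ in affinity, and the annotation gives the span of the aligned sequence and not the place of each probe.

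For Pgr and Esr1, a probe set has a span that reaches a RefSeq transcript start. The sequence before that start is shown because the results below are set out by the position of spans along the gene. Both sequences are from RefSeq (GRCm38.p6), 250 bases ending just before a transcript start, 5' to 3' on the plus strand. Capitals mark CCAAT or its reverse ATTGG and GGGCGG or its reverse CCGCCC, which a search on both strands found without overlap.
Pgr, chr9:8899583-8899832: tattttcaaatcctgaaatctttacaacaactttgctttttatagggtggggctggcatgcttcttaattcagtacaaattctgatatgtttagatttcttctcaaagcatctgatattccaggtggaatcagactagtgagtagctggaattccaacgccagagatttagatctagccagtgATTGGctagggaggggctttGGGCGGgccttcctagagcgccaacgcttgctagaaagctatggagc
Esr1, the downstream of 2 listed starts, chr10:4709908-4710157: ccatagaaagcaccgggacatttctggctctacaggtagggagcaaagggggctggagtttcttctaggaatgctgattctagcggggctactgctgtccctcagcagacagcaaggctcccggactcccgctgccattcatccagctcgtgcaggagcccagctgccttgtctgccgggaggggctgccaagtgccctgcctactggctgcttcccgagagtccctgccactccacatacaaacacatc
All 250 bases of the Pgr window lie inside the span of probe set 1455772_at (chromosome 9, 8899504 to 8900188), which the annotation places on the minus strand although Pgr lies on the plus strand. As annotated, that probe set lies opposite to the Pgr mRNA at its start. For Esr1, the span of 1421244_at (chromosome 10, 4710157 to 5002026, plus strand) begins 1 base before the RefSeq start at 4710158. The sequence tables hold 6 start windows for Pgr, Esr1, Esr2, Nr3c2 and Ncoa1. AGAACA or its reverse TGTTCT, the half-site of corticosteroid and progesterone receptors, was in 0 of these 6 windows and in 16.1% of all 32851 mouse windows. GGTCA or its reverse TGACC, the core of the oestrogen receptor half-site, was in 2 of the 6, those of Nr3c2 and Esr2, and in 35.2% of all windows. CCAAT or its reverse was in 4 of the 6, against 33.8% of all, and GGGCGG or its reverse in 3 of the 6, against 32.7%.

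Across the 16 tested probe sets, 4 passed the test. In a grouping of all 16 chosen afterwards, the probe sets with a short span at the 3' end of a gene had differences above 0 and most others below it. Of the 16, 3 were called higher in shock, where 9.31% of all tested probe sets were, and 1 was called lower in shock, where 11.5% were. All shock arrays lay above all female arrays at 5 of the 16, against 24.6% of all tested probe sets, and below them at 4, against 23.1%. Of the differences, 8 were above 0 and 8 below it, with a median of 0.00 (log2), against 0.02 over all tested probe sets. The median size of a difference, without its sign, was 0.30 in these genes and 0.22 over all. A grouping made after the values were seen took the probe sets whose span is at most 5000 bases long and ends within 20 bases of the RefSeq 3' end of the gene. All 7 of these had a difference above 0 (median 0.44), and of the other 9 tested, 1 was above 0 and 8 below (median -0.20). These 9 include 1455772_at of Pgr on the opposite strand (-0.11). They also include Nr3c1 probe sets set apart by length alone, since their spans end as near the 3' end: 1460303_at (0.43), 1421867_at (-0.15) and 1421866_at (-0.30). Over all genes, the same kind of 3' span was above 0 in 64.2% of 4563 probe sets (median 0.13). Of the 16299 with other spans on the gene's own strand, 48.3% were above 0 (median -0.01), so opposite-strand probe sets are left out of this share.

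**Figure D1:**
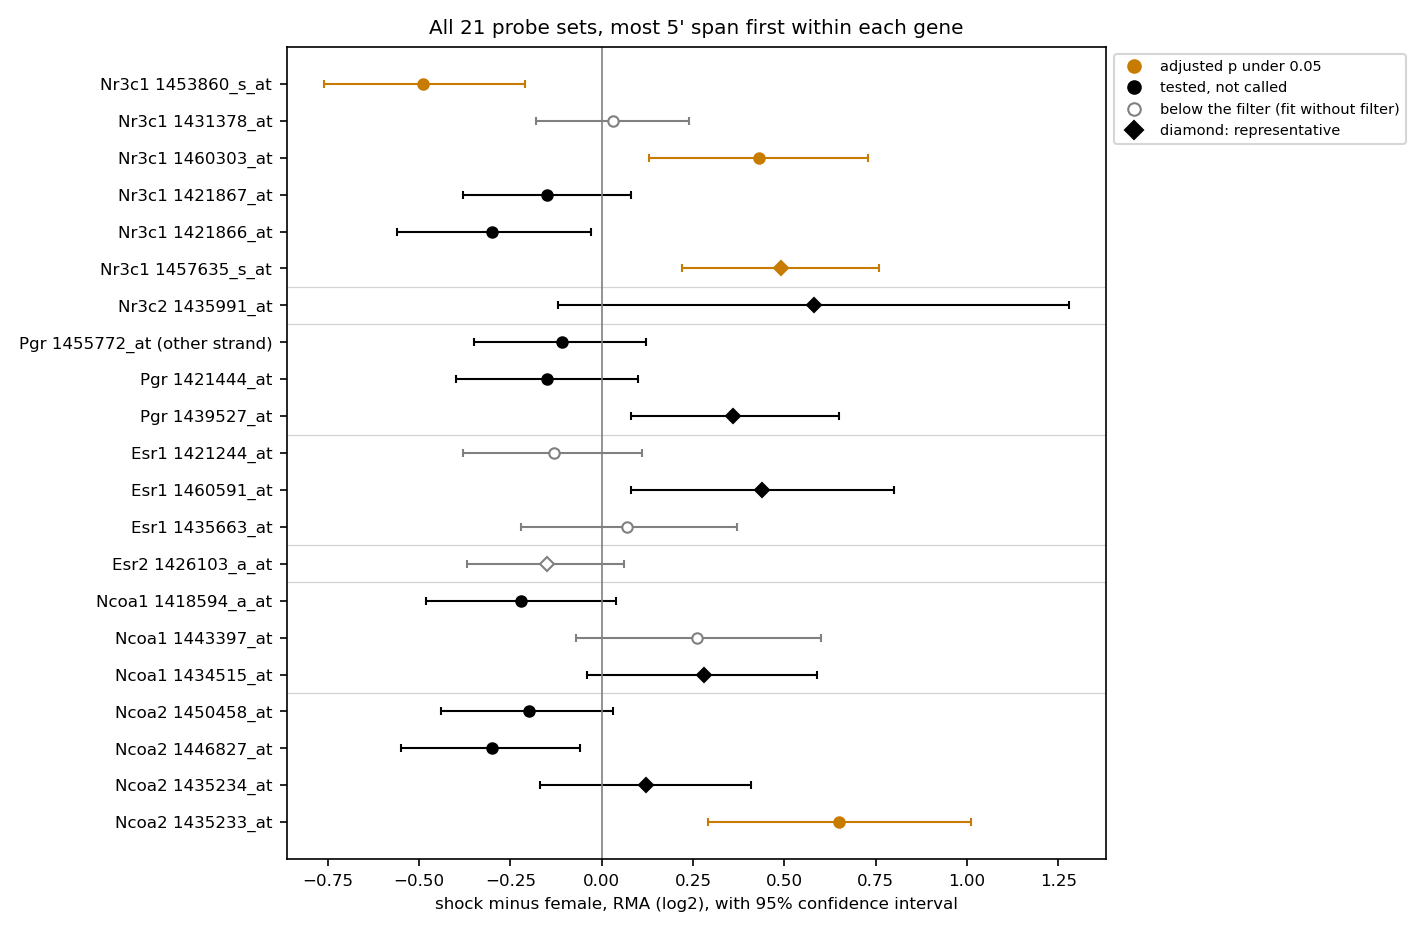
Shock minus female (RMA, log2; horizontal axis) at each of the 21 probe sets, ordered within each gene from the most 5' span down to the most 3', with 95% confidence intervals from limma. Orange points are the 4 called, open grey points the 5 below the filter and diamonds the representatives. In Nr3c1 the called probe sets lie on both sides of 0, at -0.49, 0.43 and 0.49.

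The glucocorticoid receptor gene differed in opposite directions at its ends. At its representative 1457635_s_at (chromosome 18, 39410556 to 39410794, minus strand), whose span begins 11 bases from the 3' end of the gene, Nr3c1 had RMA values of 9.95, 9.81 and 9.77 in shock replicates 1 to 3, against 9.40, 9.14 and 9.52 in female replicates 1 to 3. Every shock array lay above every female array. The means were 9.84 ± 0.09 in shock and 9.35 ± 0.19 in female (SD of 3 log2 values). Shock minus female was 0.49 (standard error 0.12, limma adjusted p = 0.0235), a 1.41-fold higher level in shock. The probe set 1453860_s_at, whose span (39486843 to 39492276) lies near the 5' end, had 6.94, 7.20 and 6.99 in shock replicates 1 to 3, against 7.37, 7.73 and 7.49 in female. Here every shock array lay below every female array. Its difference was -0.49 (standard error 0.12, limma adjusted p = 0.0265), a 1.40-fold higher level in female.

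The other 4 probe sets of Nr3c1 were split as well. Of these, 3 share one alignment over most of the gene (39410556 to 39489880), so the annotation does not say which end each reads. Among the 3, 1460303_at had 9.85, 9.59 and 9.71 in shock, against 9.44, 9.01 and 9.41 in female, and was called higher in shock, at 0.43 with a limma adjusted p of 0.0480. Its groups did not overlap. The second, 1421866_at, had 6.43, 6.66 and 6.50 in shock, against 6.70, 7.03 and 6.76 in female, also without overlap but in the other direction, at -0.30 with a limma adjusted p of 0.0958. For 1421867_at the difference was -0.15 (95% confidence interval -0.38 to 0.08) and the groups overlapped. The dim 1431378_at, which shares the 5' span, was at 0.03 (-0.18 to 0.24). With the mean of the 5 tested probe sets in place of the representative, the Nr3c1 difference was 0.00, with a limma adjusted p of 0.984, and not called.

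Each of the 3 calls in Nr3c1 was lost when any 1 shock array was left out, while the differences kept their sign. Calls over all tested probe sets also became fewer in these fits, as given below. At 1457635_s_at the limma adjusted p was 0.105, 0.0677 and 0.0649 without shock replicates 1, 2 and 3, with differences of 0.44, 0.51 and 0.53, and the call held without any one female array. At 1453860_s_at it was 0.114, 0.0503 and 0.0921 without these shock arrays, with differences of -0.43, -0.56 and -0.46, and 0.0519 without female replicate 3. At 1460303_at it was 0.171, 0.0823 and 0.123 without them, 0.0625 without female replicate 2 and 0.0606 without female replicate 3. On MAS5 intensities the representative had 1520, 1650 and 1650 in shock, against 1270, 1080 and 1270 in female, with no overlap, a difference of 0.41 on the scale of log2(value + 16) and a limma adjusted p of 0.139. The 5' probe set 1453860_s_at was at -0.35 on that scale, with overlapping groups. In the authors' deposited table of RMA values, where a negative fold means higher in shock, 1457635_s_at stood at -1.36 (FDR 0.171) and 1453860_s_at at 1.44 (FDR 0.182).

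**Figure D2:**
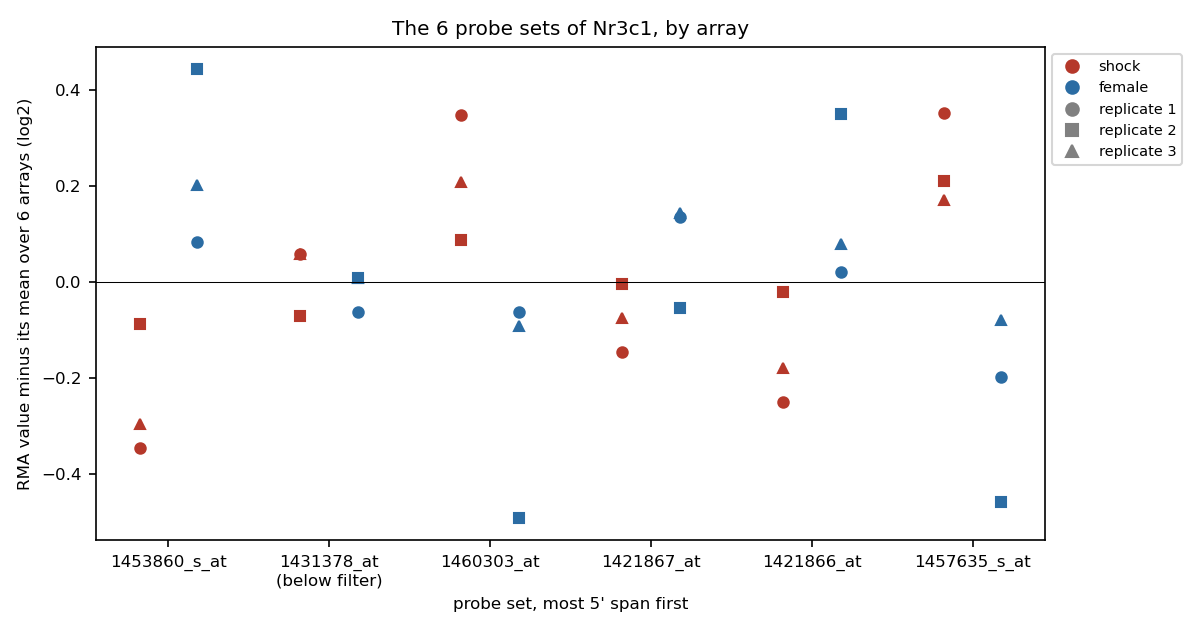
RMA value of each Nr3c1 probe set on each array, as the difference from that probe set's mean over the 6 arrays (log2; vertical axis), with shock in red to the left of female in blue. Shock lies above female at 1460303_at and 1457635_s_at and below it at 1453860_s_at and 1421866_at.

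The mineralocorticoid receptor gene was set apart by 1 array. Nr3c2, whose receptor has a high affinity for corticosterone, has 1 probe set, 1435991_at (chromosome 8, 77243940 to 77245012, plus strand), which ends at the last base of the gene in RefSeq. Its RMA values were 9.29, 9.10 and 9.13 in shock, against 9.13, 7.66 and 8.99 in female. Female replicate 2 lay 1.40 below the mean of the other female arrays (a difference of -1.40), while the remaining 5 arrays lay between 8.99 and 9.29. The difference was 0.58 (standard error 0.31, 95% confidence interval -0.12 to 1.28, limma adjusted p = 0.190). Without female replicate 2 it was 0.12, with a limma adjusted p of 0.435. MAS5 intensities had the same low array, with 553, 731 and 699 in shock, against 733, 310 and 649 in female. In the authors' deposited RMA table the fold of Nr3c2 was -1.04, with an FDR of 0.490. The group averages there are bi-weight averages and not plain means, and that of female was 9.06, against a plain mean of 8.59.

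The progesterone receptor gene gave no call, though the groups did not overlap at its 3' end. Its representative 1439527_at (chromosome 9, 8967716 to 8968611, plus strand) had 9.94, 9.99 and 9.97 in shock, against 9.78, 9.33 and 9.69 in female. No shock array overlapped the female arrays, and the shock arrays lay within 0.05 of each other. Pgr averaged 9.96 ± 0.03 in shock and 9.60 ± 0.24 in female (SD of 3 log2 values). Shock minus female was 0.36 (standard error 0.13, 95% confidence interval 0.08 to 0.65, limma adjusted p = 0.0642). Without female replicate 2 the difference was 0.23, with an adjusted p of 0.0927. MAS5 intensities were 1410, 1430 and 1500 in shock, against 1270, 1030 and 1190 in female, again without overlap, with a limma adjusted p of 0.231. The more 5' probe set 1421444_at (8900424 to 8965436) was at -0.15 (-0.40 to 0.10). The opposite-strand 1455772_at, at the start sequence shown above, had 8.07, 7.92 and 7.96 in shock, against 7.95, 8.15 and 8.18 in female. Its groups overlapped on RMA values, at -0.11 (-0.35 to 0.12), while its MAS5 intensities of 376, 316 and 337 in shock lay below the 420, 461 and 418 in female.

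The 2 oestrogen receptor genes gave no call. The representative of Esr1, 1460591_at (chromosome 10, 5002864 to 5005632, plus strand), had 7.01, 7.08 and 7.07 in shock, against 6.67, 6.22 and 6.95 in female. The shock arrays lay together above the widely spread female arrays, at 7.05 ± 0.04 in shock and 6.61 ± 0.37 in female (SD of 3 log2 values). The difference was 0.44 (standard error 0.16, 95% confidence interval 0.08 to 0.80, limma adjusted p = 0.0763). Without female replicate 2 it was 0.24. On MAS5 intensities the groups overlapped, with 251, 283 and 254 in shock, against 217, 198 and 271 in female. The dim Esr1 probe sets 1435663_at and 1421244_at were at 0.07 (-0.22 to 0.37) and -0.13 (-0.38 to 0.11). Esr2, at 1426103_a_at (chromosome 12, 76121729 to 76167483, minus strand), lay below the filter, with 5.96, 5.90 and 5.80 in shock, against 6.02, 6.09 and 6.01 in female. All shock arrays lay below the female ones, by little, at -0.15 (-0.37 to 0.06) with a limma adjusted p of 0.307 in the fit without a filter. Its MAS5 intensities ran between 5.21 and 44.2 in shock and between 8.33 and 53.7 in female, so they give no order between the groups.

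Of the 2 coactivator genes, 1 probe set of Ncoa2 was called. The representative of Ncoa1, 1434515_at (chromosome 12, 4247362 to 4248639, minus strand), had 10.93, 10.67 and 10.82 in shock, against 10.71, 10.24 and 10.65 in female. The groups overlapped, and the difference of 0.28 (95% confidence interval -0.04 to 0.59) had a limma adjusted p of 0.168. Without female replicate 2 it was 0.13. The probe set 1418594_a_at, with a span over most of Ncoa1 (4249437 to 4477154), was at -0.22 (-0.48 to 0.04) and the dim 1443397_at at 0.26 (-0.07 to 0.60).

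In Ncoa2, a pair of probe sets that share one alignment (chromosome 1, 13139106 to 13142068, minus strand) gave different calls. The representative 1435234_at had 10.58, 10.42 and 10.78 in shock, against 10.61, 10.27 and 10.55 in female, with overlapping groups, a difference of 0.12 (-0.17 to 0.41) and a limma adjusted p of 0.516. The dimmer 1435233_at had 9.85, 9.81 and 9.66 in shock, against 9.39, 8.72 and 9.25 in female, with every shock array above every female array. It was called higher in shock, 1.57-fold, at 0.65 (standard error 0.16, limma adjusted p = 0.0254). The adjusted p was 0.112, 0.0801 and 0.0648 without shock replicates 1, 2 and 3, and the difference was 0.45 (adjusted p = 0.0122) without female replicate 2. On MAS5 intensities 1435233_at had 1700, 1940 and 1710 in shock, against 1410, 947 and 1460 in female, without overlap and with a limma adjusted p of 0.168. The remaining Ncoa2 probe sets were both below 0, at -0.20 (-0.44 to 0.03) for 1450458_at and -0.30 (-0.55 to -0.06, limma adjusted p = 0.0738) for 1446827_at, and their groups did not overlap.

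**Figure D3:**
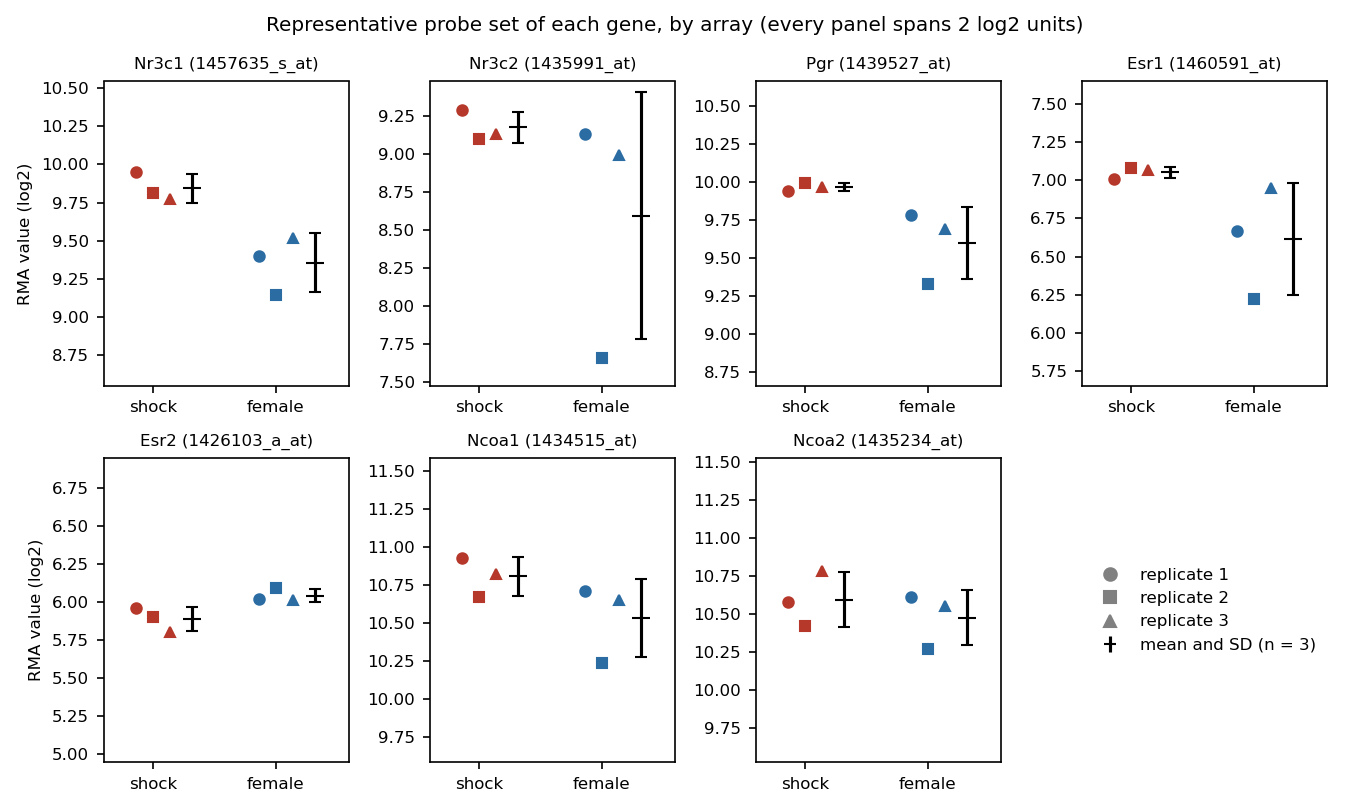
RMA value (log2; vertical axis) of the representative probe set of each of the 7 genes on each array, shock left of female, with the mean and SD of 3 arrays beside the points. In 6 of the 7 panels, all but Esr2, the blue square of female replicate 2 is the lowest point, and in Nr3c2 it lies 1.40 from the mean of the other female arrays.

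For 5 of the genes, a most 5' and a most 3' probe set on the gene's own strand were taken by the midpoint of their spans. Where probe sets shared a span, the brighter was taken. This chose 1453860_s_at (-0.49) over 1431378_at (0.03) at the 5' end of Nr3c1. At the 3' end it chose 1435234_at (0.12) over 1435233_at (0.65) in Ncoa2 and 1460591_at (0.44) over 1435663_at (0.07) in Esr1. The balances depend on this choice, and those with the other probe set were not computed. The 5' span lies near the 5' end in Nr3c1. In Pgr, Esr1, Ncoa1 and Ncoa2 it covers most of the gene, so the annotation does not say which end that probe set reads. The balance was compared within each array as the RMA value at the most 5' minus that at the most 3' probe set. For Nr3c1 it was -3.01, -2.61 and -2.78 in shock, against -2.03, -1.41 and -2.03 in female, a difference of -0.98. For Pgr it was -3.23, -3.07 and -3.00 in shock, against -2.63, -2.36 and -2.76 in female, a difference of -0.52. For Esr1, with a dim 5' probe set, it was -1.75, -1.67 and -1.67 in shock, against -1.30, -0.80 and -1.27 in female, a difference of -0.57. In these 3 genes every shock array lay below every female array, and the 2-sided exact permutation p was 0.1 in each, the smallest that 3 against 3 arrays allow (0.167 after Benjamini-Hochberg over the 5 genes). Ncoa1 and Ncoa2 differed by -0.50 and -0.32 in the same direction with overlapping groups (exact p = 0.3 and 0.2). A limma fit over the 4585 genes with both such probe sets tested was chosen after the data were examined. By limma, Nr3c1 (adjusted p = 0.0137) and Pgr (adjusted p = 0.0303) were called lower in shock and Ncoa1 (0.0882) and Ncoa2 (0.132) were not. In the same fit 27.2% of all genes were called lower in shock, with a median of -0.27 over all genes, so a lower 5' to 3' balance in shock was common on these arrays.

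**Figure D4:**
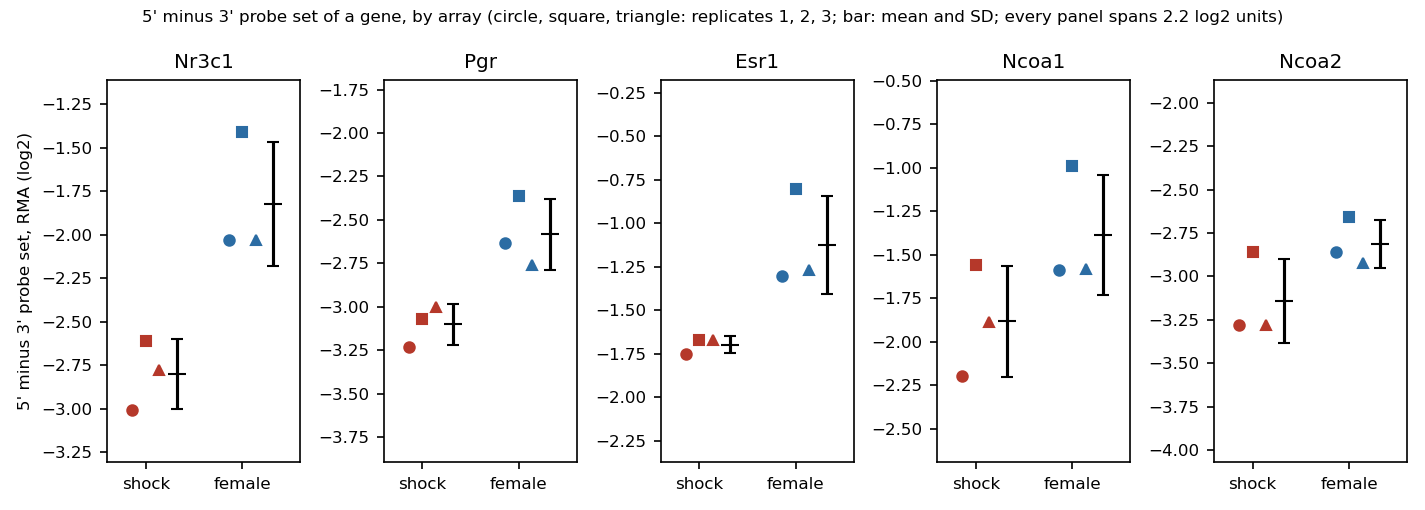
The most 5' minus the most 3' probe set of each of 5 genes, placed by span midpoint, on each array (RMA, log2, vertical axis). Shock lies left of female, with the mean and SD of 3 arrays. In Nr3c1, Pgr and Esr1 the 3 shock arrays lie below the 3 female arrays, and female replicate 2 is the highest array in all 5 panels.

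Array properties moved with these results. The median over 2689 genes of the 5' minus the 3' probe set, placed by span midpoint, is a rough measure of how much signal comes from the 5' end. It was between -0.758 and -0.698 on the shock arrays and between -0.539 and -0.354 on the female arrays. Of its variance, 0.783 was shared with the group. With this signal as a covariate, no probe set of the 7 genes was called by limma, 1 of the 16 had an unadjusted p under 0.05, and the representative of Nr3c1 was at 0.05. Over all tested probe sets, that fit called 0 higher in shock and 3 lower. In the authors' deposited tables, 5 of the 21 probe sets had an unadjusted p of the authors under 0.05 on RMA values and 3 on MAS5 values, with none at an FDR under 0.05 (lowest 0.171 and 0.272). Replacing RMA by MAS5 values, on which 2.01% of tested probe sets were called, limma called 0 of the 16, with 4 at an unadjusted p under 0.05 and all 16 of the same sign. Female replicate 2 was the lowest of the 6 arrays at 8 of the 16, against 38.0% of all tested probe sets, and the highest at 4, against 29.9%. Female arrays correlated with each other at 0.974 to 0.994 over tested probe sets, and shock arrays at 0.991 to 0.993. Without female replicate 2, 2 of the 16 were called higher in shock and 1 lower. When any 1 shock array was left out, limma called 0 of the 16, with 7, 8 and 5 at an unadjusted p under 0.05 without replicates 1, 2 and 3. Calls became fewer over all tested probe sets too. In these fits 36, 375 and 370 were higher in shock and 285, 1187 and 942 lower, against 2516 and 3098 with all arrays.

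**Figure D5:**
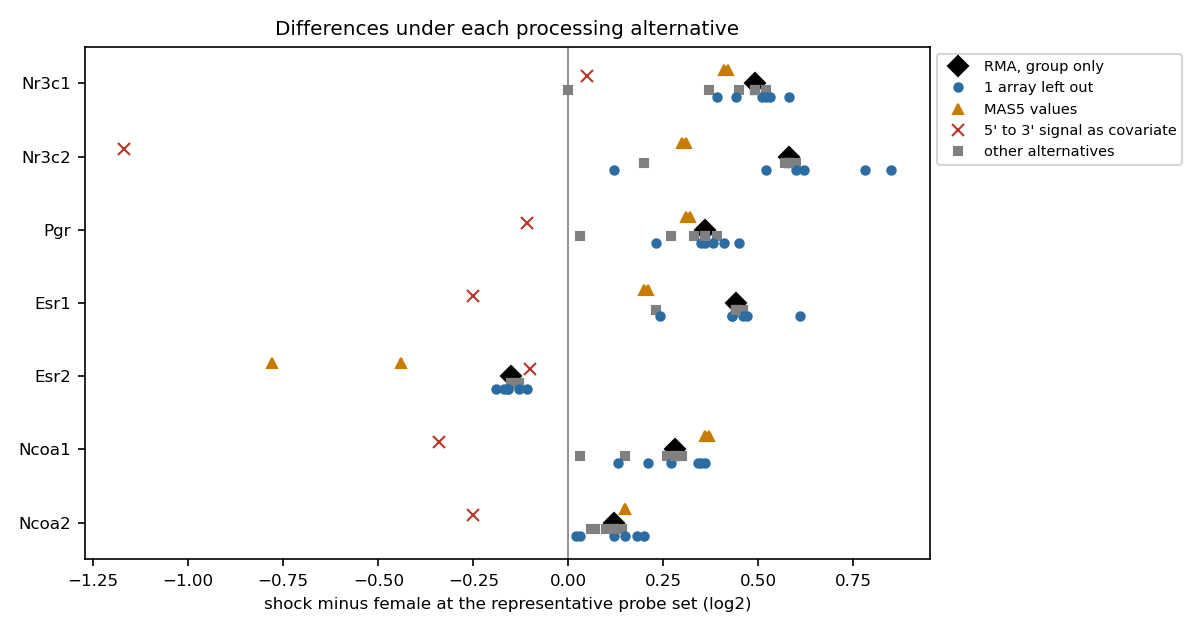
Shock minus female at the representative of each gene (log2; horizontal axis) under every processing alternative, with the reported value as a black diamond. With 1 array left out the sign is kept for all 7 genes, and with the 5' to 3' signal as covariate (red crosses) 5 of the 7 turn sign.

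Markers of the tissue and of other cells were read from the same fit. The neuronal list (Rbfox3, Snap25, Syt1, Tubb3 and Eno2) had a mean level between 11.92 and 12 on shock arrays and between 12.11 and 12.20 on female arrays, with 2 of 5 lower in shock. Excitatory markers averaged between 9.18 and 9.25 in shock and between 8.82 and 9.21 in female (3 of 6 higher in shock and 2 lower), and inhibitory ones between 11.48 and 11.59 in shock and between 11.28 and 11.36 in female (1 of 3 higher). Of 44 listed markers over all lists, 41 passed the filter, and an array gives no value of 0. Oligodendrocyte markers averaged between 9.98 and 10.27 in shock and between 10.38 and 10.98 in female, with 2 of 5 lower in shock, and endothelial ones between 6.85 and 6.90 in shock and between 7.07 and 7.35 in female, with 1 of 3 tested lower. Microglial markers averaged between 7.52 and 7.59 in shock and between 7.57 and 7.89 in female (1 of 5 lower in shock). For astrocyte markers the range was 9.81 to 9.96 in shock and 9.52 to 10.15 in female, with 0 of 4 called in limma and 2 at an unadjusted p under 0.05. Markers of the medial amygdala and hypothalamus, where Esr1 and Pgr are known to be expressed, averaged between 7.90 and 8.12 in shock and between 7.98 and 8.21 in female (2 of 5 tested lower in shock), and those of the central amygdala between 7.0 and 7.07 in shock and between 7.27 and 8.47 in female (1 of 3 lower in shock). Female replicate 2, the lowest array for 6 of the 7 representatives, was the highest for several of these markers. Prkcd, a marker of the central amygdala, had 7.08, 6.85 and 7.13 in shock, against 7.33, 9.07 and 7.77 in female, a difference of -1.03 that was not called, and -0.52 without female replicate 2. Ppp1r1b, of the same list, had 6.88, 7.02 and 6.67 in shock, against 7.51, 9.02 and 8.0 in female (-1.32, and -0.90 without that array). The oligodendrocyte gene Mag had 7.91, 7.52 and 7.48 in shock, against 8.25, 9.46 and 8.54 in female (-1.11, and -0.76 without it). These 3 markers were named after their values were seen. The part of these cells in the receptor values was not tested, and in pooled RNA fewer cells of a type and less RNA per cell cannot be told apart.

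Genes of steroid signalling went in both directions. The 7 lists held 138 genes, of which 113 were tested (Pgr, as an oestrogen target, is the 1 receptor gene among them), and 11 were higher in shock and 19 lower in shock, against 10.6% and 9.40% of 13203 genes by their representative. Their median was 0.02 (log2), against 0.06 over all genes. Among 8 tested relatives of the receptors, 3 were higher in shock and 2 lower. The orphan receptor gene Esrrg was higher by 0.72, with its other probe set at -0.01 and not called, and the membrane-associated Pgrmc1 by 0.45, or 0.30 without female replicate 2. The oestrogen-related receptor gene Esrra was at -0.57, a call that 5 of 6 fits without 1 array kept, and its other probe set at -0.45 was not called. Among 25 other coactivators, 3 were higher and 2 lower in shock, including the acetyltransferase gene Ep300 (0.63, and 0.38 without female replicate 2), the coactivator gene Ncoa7 (0.67, and 0.41 without that array), and the methyltransferase genes Carm1 (-0.33) and Nsd1 (-0.71). The other probe sets of Nsd1 were at 0.02, -0.27 and 0.39 and that of Ncoa7 at 0.15, none of them called. Among 17 corepressors, 3 were higher and 3 lower in shock, with Rcor1, a partner of REST, at 0.60 and the corepressor gene Sin3b at -0.57. Another probe set of Rcor1 was at 0.20 and not called, and of the others of Sin3b, 1 was called at -0.55 and 3 were not (-0.05, 0.14 and 0.09).

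Receptor chaperones hold steroid receptors ready for hormone. Of 17 tested, 5 were called lower and none higher by limma, with 6 and 2 at an unadjusted p under 0.05, and the list median was -0.13. The phosphatase gene Ppp5c (-1.18), the immunophilin gene Fkbp4 (-1.0), the kinase co-chaperone gene Cdc37 (-0.93) and the ubiquitin ligase gene Stub1 (-0.83) kept their call in every fit that left out 1 array and also on MAS5 values with 16 added, where Stub1 and Fkbp4 lost it with 1 added. A second probe set of Fkbp4 was at 0.00 and one of Cdc37 at 0.11, neither called, while those of Ppp5c (-0.99 and -0.86) and Stub1 (-0.60) were called in the same direction.

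Most target genes were not called. Of 22 glucocorticoid targets, 2 were called higher in shock and 2 lower, against 10.6% and 9.40% of 13203 genes by their representative. The other 18 were not called, and the list median was 0.16, against 0.06 over all genes. The clock gene Per1 was at -1.36 and the metallothionein gene Mt2 at -0.54, whereas the NF-kB inhibitor gene Nfkbia was at 0.50 and the pyruvate dehydrogenase kinase gene Pdk4 at 0.60. Among the other probe sets of Nfkbia, 2 were called higher (0.66 and 0.54) and 2 were not called (0.23 and -0.18). Of 14 targets of oestrogen and progesterone, Pgr included, limma called none higher and 4 lower in shock (2 and 5 at an unadjusted p under 0.05, median 0.11, or 0.05 without Pgr), namely the insulin receptor substrate gene Irs2 (-0.81), Gadd45g (-0.67), Igfbp2 (-0.87) and the oxytocin gene Oxt (-0.58). Of 14 genes of steroid synthesis and metabolism, none was called higher and 2 were called lower (1 and 4 at an unadjusted p under 0.05, median -0.04), the sulphatase gene Sts (-0.65) and the dehydrogenase gene Hsd17b12 (-0.37), whose other probe set was at 0.30 and not called. Of the 30 genes called in these lists, 6, 11 and 12 kept the call without shock replicates 1, 2 and 3, and 27, 26 and 21 without female replicates 1, 2 and 3. The 6 that kept it in all of these fits were Ppp5c, Fkbp4, Cdc37, Stub1, Per1 and Irs2.

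Genes whose levels ran most like those of each receptor were taken as the 3 with the highest Pearson correlation with its representative over the 6 arrays, among 11614 named genes. For Nr3c1 these were Aard, Grb10 and Pde9a, for Nr3c2 Smim15, Nrp1 and Shisa6, for Pgr Cep76, Zbtb33 and Ap1s2, and for Esr1 Fam104a, Dlx1as and Smcr8. For Esr2 they were Lrrc23, Ccdc114 and Acrbp, for Ncoa1 Runx1t1, Depdc5 and Rhbdl3, and for Ncoa2 Zdhhc3, Cnbp and Rabgap1. The correlations ran from 0.9863 for Acrbp to 0.9994 for Cep76. The points share the 2 groups and female replicate 2, and high values were common: 1884 genes exceeded 0.9 with Nr3c1 and 2366 with Pgr, against 188 with Esr2 and 297 with Ncoa2.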

How the data were processed

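For each of 6 arrays the deposited values are RMA (log2) and MAS5 intensity (linear), per the labels. Software, versions and the MAS5 scaling target are stated in none of the sources used here. Comparison tables deposited beside them hold bi-weight group averages in log2 and a signed fold of female against shock (a score, negative where shock is higher). They also hold 2 columns of p-values, the second adjusted as an FDR, all per the file headers. Control probe sets (64) were set apart. Shock minus female was tested 2-sided with limma (3.58.1, under R 4.3.3), with group as the only term, on 27022 probe sets with a mean RMA value above the 40th percentile, with Benjamini-Hochberg adjustment over all of them. MAS5 values entered as log2(value + 16), which understates changes of dim probe sets. The number of arrays limits the precision. Of the listed genes, 1 was matched through a synonym and 5 were unmatched. The deviations of same-numbered arrays correlated at 0.01, 0.21 and 0.15, so the numbers were not used as pairs. Named genes were the 7 genes, up to 4 called genes of each list with the smallest p, and the 3 most like each gene. For the lists this rule is narrower than the plan, which named every called gene. Other called list genes are counted without a name, and 2 that the rule names are not reported here. The genes and lists were chosen with earlier results of these data known. The steps were tested on simulated data, with 200 of 27022 probe sets changed. There limma called 99% of those changed by 1 (log2) and 30% of those changed by 0.5. Many more probe sets were called in the real data, so these shares need not hold there. A difference that was not called is therefore no sign of equal levels. Alternatives are given in the closing section.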

Additional observations from a re-analysis of the deposited data

How the results depend on the processing

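On MAS5 values with 16 or 1 added before the logarithm, the Nr3c1 representative was at 0.41 and 0.42 (adjusted p = 0.139 and 0.151), not called, and dim probe sets turned sign: 1431378_at (-0.32 and -0.41), 1435663_at (-0.21 and -0.24) and 1443397_at (-0.18 and -0.20). With the 5' to 3' signal as covariate, the representatives were at 0.05 for Nr3c1, -1.17 for Nr3c2, -0.11 for Pgr, -0.25 for Esr1 and Ncoa2 and -0.34 for Ncoa1. There, 1460303_at (-0.15), 1421866_at (0.12), 1418594_a_at (0.07), 1443397_at (-0.33) and 1435233_at (-0.12) also turned sign, as did Esrrg (-0.05), Pgrmc1 (-0.08), Ep300 (-0.32), Ncoa7 (-0.31), Rcor1 (-0.10) and Nfkbia (-0.08). The covariate shares 0.783 of its variance with the group, and the cause was not tested. Of 25 listed genes with values by setting, 18 kept their sign there and 4 were larger, Cdc37 at -1.13, Irs2 at -0.97, Esrra at -0.71 and Sin3b at -0.62, although none was called. The call of 1460303_at was lost without a filter (adjusted p = 0.0644) and with further quantile normalization (0.0518), and that of Carm1 without a filter (0.0553) and with median centring (0.0521). Without a filter Pgrmc1 (0.0591), Ep300 (0.0576), Ncoa7 (0.0602) and Oxt (0.0580) also lost theirs, and Oxt with quantile normalization (0.0532). 1446827_at was called with array weights (-0.26) and without female replicate 1 (-0.38). Pgr was called with array weights (0.27, adjusted p = 0.0327). With the mean of a gene's tested probe sets, the difference was 0.00 for Nr3c1, 0.03 for Pgr (opposite-strand probe set included), 0.03 for Ncoa1 and 0.07 for Ncoa2. It stayed at 0.58 for Nr3c2 and 0.44 for Esr1, where the representative alone was tested. In limma over genes, the 5' to 3' balance of Nr3c1 (-0.98) and Pgr (-0.52) was called.

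Over all probe sets, 2516 were higher and 3098 lower in shock. The counts were 33 and 510 or 15 and 262 on MAS5 values with 16 or 1 added, 0 and 3 with the covariate, and 4211 higher with array weights. Of the 16 probe sets of the 7 genes, 3 and 1 became 0 and 0 on both MAS5 scales and with the covariate. With array weights 2 were lower, and above a 60th-percentile filter 0 were, since 10 of the 16 were then tested. Of the listed genes, 11 higher and 19 lower became 0 and 6 or 0 and 4 on MAS5 values and 0 and 0 with the covariate (median -0.15). Higher calls among them were 5 without a filter, 18 with array weights and 6 with a mean per gene (median -0.04).

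With the replicate block, which the labels do not justify as a pairing, 3473 probe sets were higher in shock, 4 of the 16 were called, and 4 of 6 arrays correlated best with their own number.

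Leaving out each array gave 0.39 to 0.58 for Nr3c1, 0.12 to 0.85 for Nr3c2, 0.23 to 0.45 for Pgr, 0.24 to 0.61 for Esr1, -0.19 to -0.11 for Esr2, 0.13 to 0.36 for Ncoa1 and 0.02 to 0.20 for Ncoa2. Pgr was called without female replicate 1 (adjusted p = 0.0364) and Esr1 without female replicate 3 (0.0370), and 1435663_at ran from -0.04 (without shock replicate 3) to 0.22. Over these fits 36 to 3449 probe sets were higher and 285 to 3307 lower in shock, 0 to 4 and 0 to 2 of the 16, and 0 to 17 and 6 to 21 of the listed genes (median 0.00 to 0.04). The 5' to 3' balance ran from -1.08 to -0.77 for Nr3c1, -0.61 to -0.40 for Pgr, -0.66 to -0.41 for Esr1, -0.66 to -0.30 for Ncoa1 and -0.46 to -0.25 for Ncoa2. Groups of 3 arrays are too small for a test of outlying samples.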
